A study of Mus musculus with 9 samples.

Results

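Voltage-gated calcium and sodium channel subunits were taken from the gene count table by symbol: the pore-forming, α2δ, β and γ subunits of calcium channels (Cacna1, Cacna2d, Cacnb and Cacng genes) and the pore-forming and β subunits of sodium channels (Scn genes ending in a or b). The rule found 40 rows with 39 symbols among 33212 rows, 27 of them for calcium and 13 for sodium channels. Cacng8 stood in 2 rows, and the second was at 0 in all 9 libraries. The table lists Scn2a under its older symbol Scn2a1, which the rule does not match, so its values are given apart from the members. Of the 40 rows, 20 passed the filter on low counts and were tested. The other 20 did not pass it and are described by their counts.

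The libraries were poly-A RNA-seq of αTC1 cells, a glucagon-producing mouse line from a pancreatic alpha cell tumour that arose in mice carrying a viral oncogene under the glucagon promoter. All cells were grown in low-glucose medium with fetal bovine serum and kept for 7 days with DMSO (5 libraries) or with 4 µM EPZ011989 (4 libraries). EPZ011989 inhibits EZH2, the enzyme that places the repressive methyl marks of Polycomb on histone H3. The labels call the libraries biological replicates without saying whether they were separate cultures, and the p-values therefore reflect only how much these libraries vary, which may be technical. The comparison asks how these channel genes differ between EPZ011989-treated and DMSO-treated cells. In bulk RNA, fewer cells with a transcript and less transcript per cell cannot be told apart.

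A voltage-gated channel opens when the membrane depolarises. The large α1 (calcium) or α (sodium) subunit forms the pore and senses voltage, while α2δ and β subunits of calcium channels and β subunits of sodium channels carry the pore to the membrane and tune its gating. In pancreatic alpha cells, T-type calcium and sodium channels take part in action potential firing, and L-, P/Q- and R-type calcium channels admit the calcium that drives glucagon exocytosis. Several γ subunits, Cacng7 among them, are better known as partners of AMPA-type glutamate receptors than of calcium channels.

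EPZ011989-treated cells had higher levels of both tested T-type pore genes (Cacna1g and Cacna1i), both tested P/Q- and R-type pore genes (Cacna1a and Cacna1e), Cacnb3, Scn1a, Scn3a and Scn2b. No tested member was called lower with all 9 libraries. Without EPZ011989 replicate 2, 4 of 22 tested members (Cacna1c, Cacna2d1, Cacnb2 and Scn9a) were called lower, beside 2377 of the 14927 genes tested there. The pore genes most abundant in DMSO, Cacna1c, Cacna1d, Scn8a and Scn9a, did not pass the test, nor did Cacna2d1 and Cacng7. In edgeR's quasi-likelihood test at a Benjamini-Hochberg adjusted p under 0.05, 9 of 20 tested members were called higher and 0 lower, beside 16.2% higher and 7.96% lower of all 14754 tested genes. At an unadjusted p under 0.05, 11 of the 20 members were higher and 2 lower, beside 3240 higher and 1934 lower of all 14754 tested genes. With limma-voom, 10 members were called higher and 0 lower, and over all genes 66.6% of its calls were higher. The median log2 fold change was 0.76 over the 20 members and 0.03 over all tested genes. Of these 20 members, 4 (Cacna1e, Cacna1g, Scn1a and Scn2b) passed the filter only through the EPZ011989 libraries, where they are high. Passing in that way favours a higher call without fixing it, so nothing is read from the share that includes them. Without such genes, 5 of 16 members were called higher and 0 lower, with a median of 0.18, beside 13.6% higher, 8.41% lower and a median of 0.01 over the 13952 tested genes that did not pass in that way. Values below are in CPM, edgeR's depth-scaled counts on TMM library sizes, unless a length is named.

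**Figure D1:**
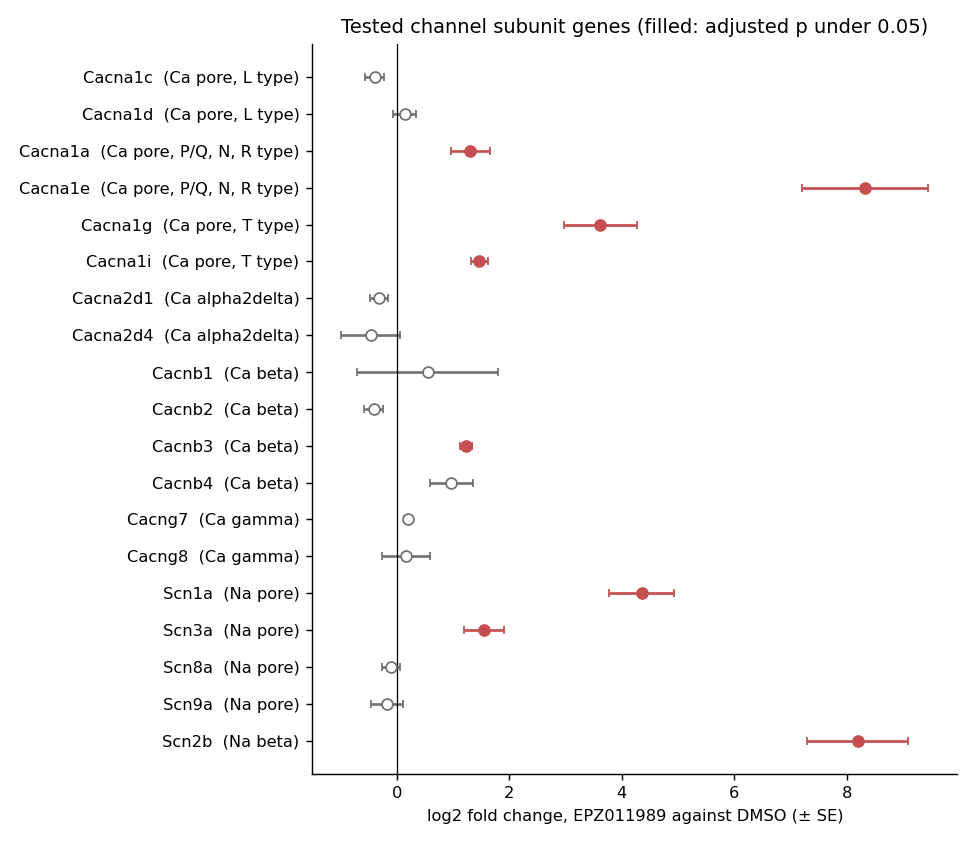
Log2 fold change of EPZ011989 over DMSO (x axis, bars are SE) for 19 of the 20 tested channel genes (y axis, with their role), filled where the adjusted p of edgeR's quasi-likelihood test was under 0.05. The 8 filled points lie to the right of 0, and the fitted values of Cacna1e (8.32) and Scn2b (8.19) rest on DMSO groups at 0 and give no bound on a fold.

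Sorted by the mean over the 9 libraries, 4 of 8 tested members under 1 CPM were called higher, beside 20.8% of all tested genes at that level. Of these 4, 3 (Cacna1e, Cacna1g and Scn2b) are among those that passed only through the EPZ011989 libraries, so nothing is read from that share.

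To show the sequence at the start sites that RefSeq gives these genes, its windows of 250 bases before to 50 after each start site were taken on GRCm38.p6. They matched 29 of the 39 symbols, with 39 windows. Among those not matched were Cacna1a, Cacna1g, Cacna1h, Cacna2d4, Cacng1, Cacng4, Scn3a and Scn3b. Printed below are the 250 bases before the start, with CG dinucleotides in capitals, for 2 called genes with higher counts (Cacna1i, and Cacnb3 with the first of its 2 windows) and, beside them, for 2 abundant genes that were not called (Cacna2d1 and Scn9a). The 4 printed stretches overlap no GENCODE exon, and the Cacnb3 stretch lies inside the GENCODE gene, with its end 1.5 kb from the gene's first base, so it precedes only an internal RefSeq start. They lie at chr15:80286988-80287237 (plus strand), chr15:98632078-98632327 (plus), chr5:15934441-15934690 (plus) and chr2:66634963-66635212 (minus).
Cacna1i: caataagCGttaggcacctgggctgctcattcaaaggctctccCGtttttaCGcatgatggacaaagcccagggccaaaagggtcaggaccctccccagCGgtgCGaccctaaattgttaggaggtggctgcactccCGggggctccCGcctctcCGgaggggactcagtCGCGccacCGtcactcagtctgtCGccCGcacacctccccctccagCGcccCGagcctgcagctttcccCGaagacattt
Cacnb3: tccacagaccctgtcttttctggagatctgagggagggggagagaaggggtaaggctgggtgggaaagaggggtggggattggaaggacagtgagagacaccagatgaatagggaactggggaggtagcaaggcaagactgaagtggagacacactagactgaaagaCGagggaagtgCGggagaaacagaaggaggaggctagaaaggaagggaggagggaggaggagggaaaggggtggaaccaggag
Cacna2d1: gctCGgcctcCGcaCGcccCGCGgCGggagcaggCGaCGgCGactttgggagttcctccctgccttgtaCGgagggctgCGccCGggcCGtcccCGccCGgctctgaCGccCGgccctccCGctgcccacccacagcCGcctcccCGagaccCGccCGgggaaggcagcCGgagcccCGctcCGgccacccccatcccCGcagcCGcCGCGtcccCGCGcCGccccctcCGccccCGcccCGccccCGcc
Scn9a: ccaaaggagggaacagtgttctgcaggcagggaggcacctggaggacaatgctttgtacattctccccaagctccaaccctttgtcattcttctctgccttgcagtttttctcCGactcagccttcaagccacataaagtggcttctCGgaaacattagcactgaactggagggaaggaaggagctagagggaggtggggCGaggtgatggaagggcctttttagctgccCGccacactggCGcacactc
These stretches hold 16, 2, 36 and 5 CG dinucleotides in the order printed. The second Cacnb3 window, which overlaps an exon and is not printed, holds 23, so the content of Cacnb3 differs between its windows.

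Across the 300-base windows, the CpG content of called genes lay within the range of the others. The ratio of observed to expected CpG had a median of 0.44 over the 6 windows of 5 called genes (range 0.20 to 0.89). It was 0.59 over the 18 windows of 10 genes that were tested and not called (0.11 to 1.18), 0.40 over the 15 windows of 14 genes below the filter (0.14 to 1.10), and 0.38 over all 32851 windows. The called values were 0.20 for Scn2b, 0.30 for Scn1a, 0.48 for Cacna1e, 0.79 for Cacna1i, and 0.39 and 0.89 for Cacnb3. The Cacna1e window lies 158.6 kb inside the GENCODE gene, wholly within exons, so it is not the promoter of the full-length gene. Of the 250 bases before the start, 211 for Scn1a and 94 for Scn2b overlap GENCODE exons. The Cacnb3 stretches end 1.5 and 3.9 kb inside the gene. Among the called windows, only that of Cacna1i has a stretch outside the gene and free of exons, so the called median covers mostly exon or internal sequence. The letters GGGCGG, searched on both strands, stood in 2 of the 6 called windows, 16 of the 39 member windows and 35.7% of all windows. TATAAA, also on both strands, stood in 0 of the 6 called windows, 1 of the 39 and 13.6% of all. These are counts of letters in a window and were not tested.

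**Figure D2:**
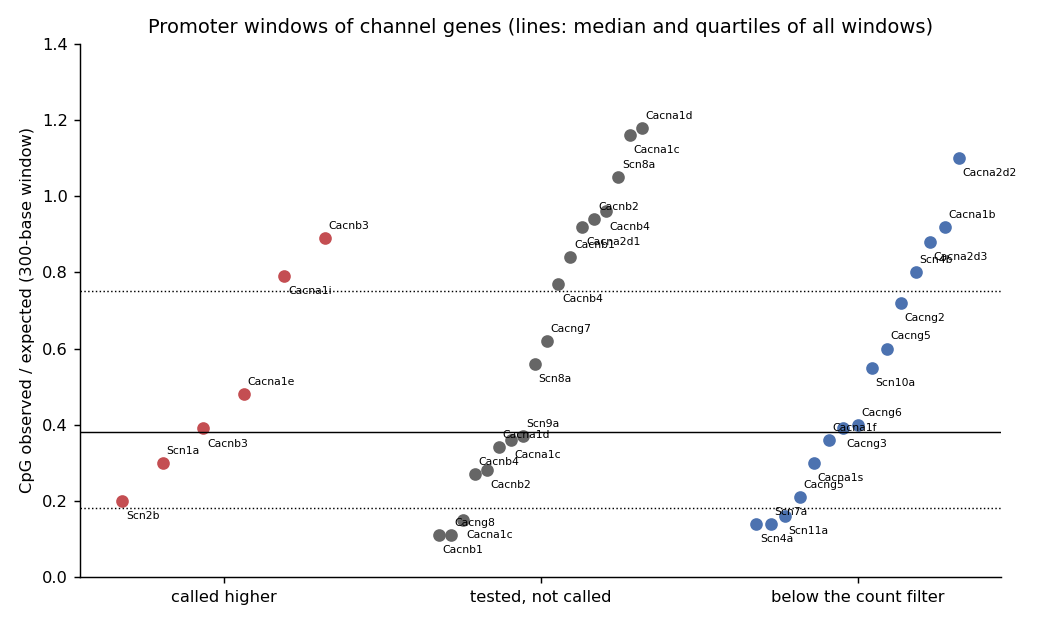
Observed over expected CpG (y axis) in each 300-base RefSeq window of the channel genes, by whether the gene was called higher, tested and not called, or below the count filter (x axis). The solid line is the median of all windows (0.38) and the dotted lines are the quartiles (0.18 and 0.75), and each of the 3 classes spans from near the lower quartile to above the upper one.

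The pore genes of P/Q-, N- and R-type calcium channels were low in both groups. Cacna1a, the P/Q-type pore, was at 0.379, 0.339, 0.692, 0.760 and 0.371 CPM in DMSO and at 1.39, 0.816, 1.69 and 1.14 CPM with EPZ011989. All EPZ011989 libraries lay above all DMSO libraries, though EPZ011989 replicate 2 (0.816) was close to DMSO replicate 4 (0.760). The means were 0.508 ± 0.201 (SD, n = 5) and 1.26 ± 0.371 CPM (n = 4), a 2.48-fold difference (log2 fold change 1.31 ± 0.35 SE, edgeR adjusted p = 0.0192). The call was lost without EPZ011989 replicate 1 (adjusted p = 0.0623) or replicate 3 (adjusted p = 0.0712). Exon bases of Cacna1a shared with Gm16183 on the opposite strand make up 3.81% of its exon length, and whether the counting used strand is not given in the sources used here.

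Cacna1e, the R-type pore, had no count in any of the 5 DMSO libraries and stood at 0.716, 0.971, 0.185 and 0.379 CPM with EPZ011989. These values rest on 54, 69, 14 and 27 counts, and many fragments appear to add about 4 counts. Its mean of 0.563 ± 0.350 CPM (n = 4) was at least 3.20-fold higher than DMSO at a floor of 12 counts per library (edgeR adjusted p = 0.00189). EPZ011989 replicate 3 lay near that floor, which is 0.158 to 0.203 CPM depending on the library. Cacna1b, the N-type pore of neurons, was at 0 in all 9 libraries, which allows up to that floor.

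Of the T-type pore genes, which conduct near the resting potential, Cacna1i and Cacna1g were tested and called higher, and Cacna1g passed the filter only through the EPZ011989 libraries. Cacna1i was the more abundant, with 10.9, 9.65, 8.72, 9.81 and 8.20 CPM in DMSO and 24.5, 35.4, 22.0 and 22.9 CPM with EPZ011989. The groups were far apart, with the lowest EPZ011989 library at 22.0 and the highest DMSO library at 10.9. The means of 9.45 ± 1.03 (n = 5) and 26.2 ± 6.20 CPM (n = 4) differed 2.77-fold (log2 fold change 1.47 ± 0.15, edgeR adjusted p = 3.83e-05). Cacna1g was at 0, 0.103, 0.0692, 0.186 and 0.0857 CPM in DMSO, below or near the floor, and at 0.689, 1.28, 0.897 and 1.49 CPM with EPZ011989. All 4 treated libraries were above all DMSO libraries. The means of 0.0888 ± 0.0669 and 1.09 ± 0.362 CPM differed 12.3-fold (log2 fold change 3.62 ± 0.65, edgeR adjusted p = 0.00202), a ratio that rests on 29 counts over the 5 DMSO libraries. The third T-type gene, Cacna1h, did not pass the filter, with 2 counts over the DMSO libraries and 35 over the EPZ011989 libraries.

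The L-type pore genes were the main calcium channel transcripts and were not called. Cacna1c, the L-type pore of heart, brain and islets, was at 181, 148, 173, 161 and 133 CPM in DMSO and at 123, 169, 105 and 88.6 CPM with EPZ011989. The groups overlapped only through EPZ011989 replicate 2, which at 169 CPM lay among the DMSO values. The means were 159 ± 19.3 and 122 ± 34.9 CPM (log2 fold change -0.39 ± 0.17, edgeR adjusted p = 0.126). Without EPZ011989 replicate 2 the log2 fold change was -0.60 and the adjusted p 0.00314. Cacna1d, the other L-type pore of endocrine cells, had a mean of 16.3 ± 2.49 CPM after DMSO and 18.0 ± 6.14 CPM after EPZ011989, and its groups overlapped (log2 fold change 0.14 ± 0.20, edgeR adjusted p = 0.683). Its direction turned without EPZ011989 replicate 2, to -0.12.

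The other L-type genes stayed below the filter. Cacna1s, the pore of skeletal muscle, had 0 counts in DMSO and 21, 7, 18 and 41 counts with EPZ011989 (0.278, 0.0985, 0.237 and 0.575 CPM). All 4 treated libraries thus held counts and no DMSO library did. Its mean of 0.297 ± 0.201 CPM was at least 1.69-fold higher than the DMSO floor, and it was called higher when all genes with a count were tested (edgeR adjusted p = 0.00497) and by DESeq2 (adjusted p = 3.36e-06). In Cacna1s 20% of the exon bases are shared with Gm37759 on the opposite strand. Cacna1f, the pore of retinal photoreceptors, had 10 counts in all over DMSO and 9 over EPZ011989.

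**Figure D3:**
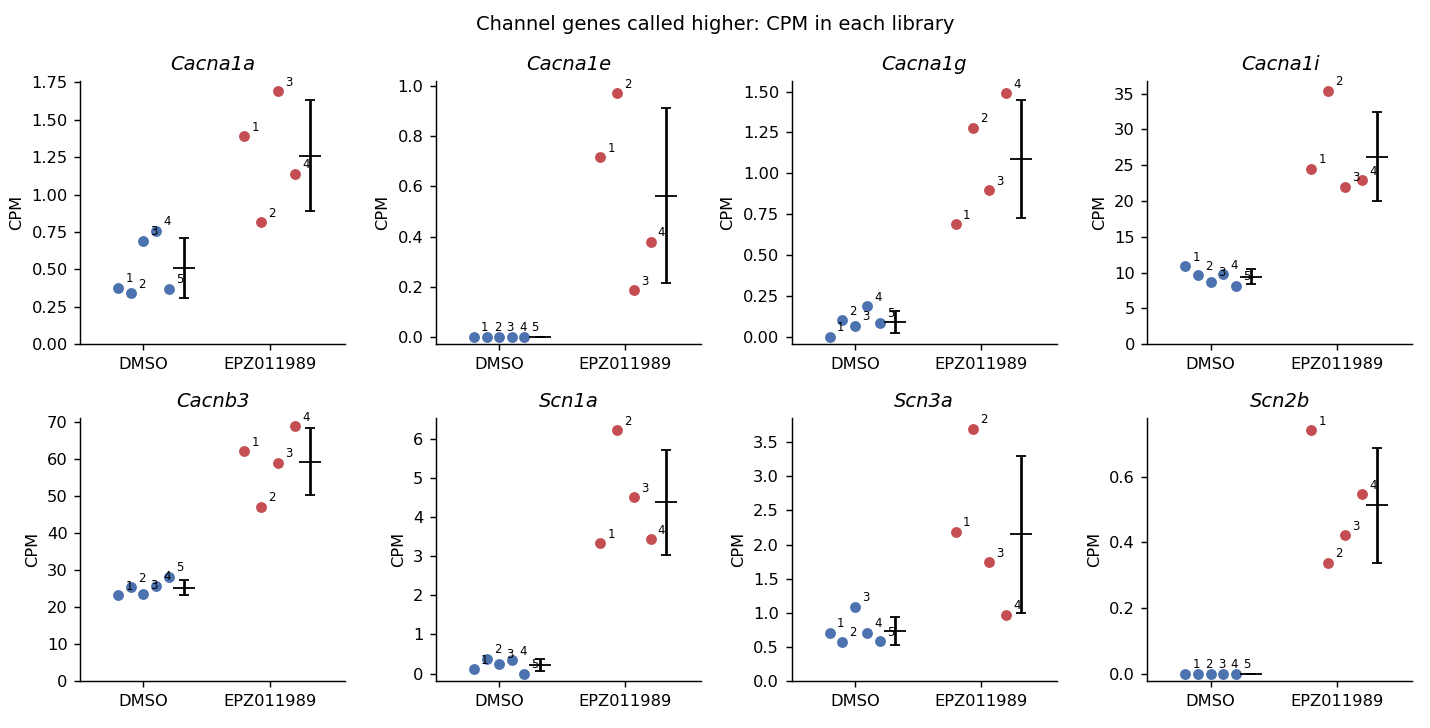
CPM (y axis, from 0, a scale of its own in each panel) of 8 channel genes called higher, with 1 point per library, numbered by replicate, for DMSO (5) and EPZ011989 (4); bars are mean ± SD. In 7 panels every EPZ011989 point is above every DMSO point, and in Scn3a EPZ011989 replicate 4 (0.968) is below DMSO replicate 3 (1.09).

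Per kilobase of exon, which allows levels of different genes to be compared, the shares of the calcium pore genes were apart between the groups and the means of their sum were close. The summed level of the 10 pore genes was 9.81 ± 1.17 CPM per kb in DMSO (n = 5) and 10.1 ± 2.70 with EPZ011989 (n = 4). EPZ011989 replicate 2 raised the treated mean, at 14.0, while replicates 1, 3 and 4 were at 9.93, 8.77 and 7.83. The DMSO libraries ranged from 8.19 to 11.2. L-type genes made up 89.6% ± 0.852 of that sum in DMSO and 70.9% ± 2.83 with EPZ011989. T-type genes made up 9.91% ± 0.904 and 27.7% ± 2.77. The shares of the 2 groups did not overlap in either class, since the lowest T-type share with EPZ011989 was 25.7% and the highest in DMSO 10.8%. Within these classes, Cacna1c went from 76.5% ± 0.339 to 56.4% ± 2.21 and Cacna1i from 9.81% ± 0.880 to 26.4% ± 2.17, while Cacna1d took 13.2% and 13.9%. Dividing by the longest transcript in place of the union of exons gave T-type shares of 6.63% and 20.2%. These shares are descriptions with no test.

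The α2δ subunits were carried by 1 gene. Cacna2d1, the α2δ protein that gabapentin binds, made up 99.4% of the α2δ level per kb in DMSO and 98.8% with EPZ011989. It was at 98.6, 86.8, 94.9, 80.0 and 75.9 CPM in DMSO and at 67.9, 97.8, 63.1 and 51.0 CPM with EPZ011989. As for Cacna1c, 3 treated libraries lay below all DMSO libraries and EPZ011989 replicate 2 lay among them. The test did not call it (log2 fold change -0.32 ± 0.16, edgeR adjusted p = 0.197), and without that replicate it did (-0.53, adjusted p = 0.00378). Cacna2d4 was low in both groups, at 0.408 ± 0.143 and 0.296 ± 0.159 CPM (edgeR adjusted p = 0.594). Cacna2d2 had 9 counts over DMSO and 80 over EPZ011989, and Cacna2d3 had 0 and 5, both below the filter.

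Among the 4 β subunits, which bind the calcium pore from inside the cell, Cacnb3 was dominant and was called higher. It was at 23.2, 25.3, 23.5, 25.8 and 28.2 CPM in DMSO and at 62.1, 47.1, 59.0 and 68.9 CPM with EPZ011989. The gap between the groups was wide, from 28.2 to 47.1 CPM. The means of 25.2 ± 2.01 and 59.3 ± 9.13 CPM differed 2.35-fold (log2 fold change 1.23 ± 0.11, edgeR adjusted p = 1.68e-05), the smallest p among the members. Cacnb3 made up 91.9% ± 1.24 of the β level per kb in DMSO and 96.5% ± 1.38 with EPZ011989. The summed β level was 6.84 ± 0.472 and 15.3 ± 2.17 CPM per kb, whereas the calcium pore sums above were 9.81 and 10.1.

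The other β genes were not called. Cacnb2, the β subunit of heart L-type channels, averaged 6.03 ± 0.755 CPM after DMSO and 4.54 ± 1.15 CPM after EPZ011989 (log2 fold change -0.41 ± 0.17, edgeR adjusted p = 0.117), and at -0.58 (adjusted p = 0.016) without EPZ011989 replicate 2. Cacnb4 was at 0.660 ± 0.316 and 1.30 ± 0.304 CPM (log2 fold change 0.97 ± 0.38, edgeR adjusted p = 0.0919), and limma-voom called it (adjusted p = 0.0499). The highest DMSO library of Cacnb4 (1.00) lay above the lowest EPZ011989 library (0.940), and 16% of its exon bases are shared with A430018G15Rik on the opposite strand. Cacnb1, the β subunit of skeletal muscle, had 31 counts over DMSO and 38 over EPZ011989, with at most 21 in a library (edgeR adjusted p = 0.812).

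The γ subunits were also carried by 1 gene. Cacng7 had the highest level per kb of all members, at 67.7 ± 3.84 CPM per kb in DMSO and 77.6 ± 6.08 with EPZ011989. In CPM it was at 154, 164, 165, 164 and 180 in DMSO and at 192, 174, 183 and 209 with EPZ011989. The groups touched, with EPZ011989 replicate 2 (174) below DMSO replicate 5 (180), and the difference of 1.15-fold was not called (log2 fold change 0.20 ± 0.07, edgeR adjusted p = 0.0686). It was called higher with upper-quartile factors (adjusted p = 0.0393), with library size alone (0.0148) and without EPZ011989 replicate 2 (0.0145), so its call depends on the scaling. Cacng8, its neighbour 22.5 kb away on chromosome 7, was at 0.719 ± 0.295 and 0.806 ± 0.280 CPM (edgeR adjusted p = 0.840). Cacng1 and Cacng6, the γ subunits of skeletal muscle, were at 0 in all 9 libraries, and Cacng2, Cacng3 and Cacng5 held 15, 5 and 4 counts, each in 1 EPZ011989 library. Cacng4 had 20 counts over DMSO and 86 over EPZ011989, of which 57 were in replicate 4.

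**Figure D4:**
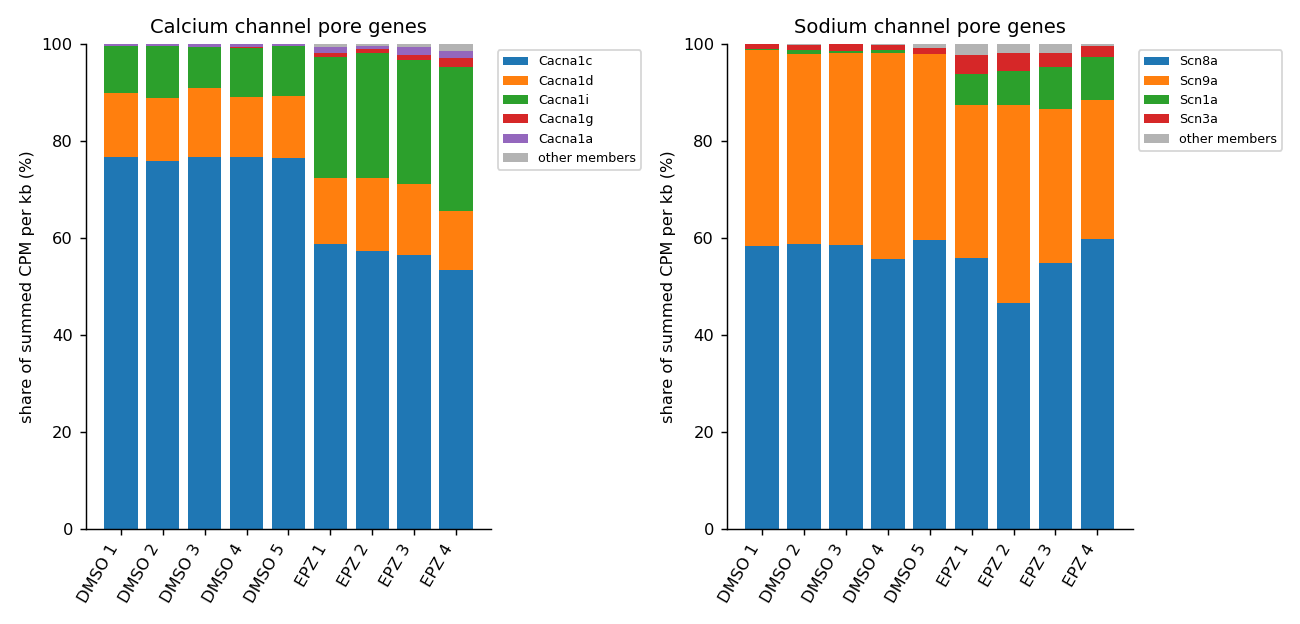
Share of the summed CPM per kb of exon (y axis, %) taken by each pore gene of calcium channels (left) and sodium channels (right) in each of the 9 libraries (x axis). Cacna1i (green, left) takes 8.32 to 10.7% in DMSO and 25.0 to 29.7% with EPZ011989, and Scn1a (green, right) at most 0.768% in DMSO and 6.44 to 8.87% with EPZ011989.

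Sodium pore transcripts in DMSO were mostly Scn8a and Scn9a, the pores of central and of peripheral neurons, at 58.2% and 40.0% of the summed level per kb. That sum was 5.07 ± 0.710 CPM per kb in DMSO and 5.21 ± 1.99 with EPZ011989. Here too EPZ011989 replicate 2 raised the mean, at 8.07, with replicates 1, 3 and 4 at 4.64, 4.67 and 3.48 and DMSO at 4.38 to 5.97. Scn8a was at 52.1, 41.5, 55.2, 42.8 and 41.1 CPM in DMSO and at 40.9, 59.3, 40.3 and 32.7 CPM in EPZ011989 libraries (log2 fold change -0.10 ± 0.16, edgeR adjusted p = 0.718). Scn9a was at 29.2, 22.5, 30.1, 26.4 and 21.6 CPM in DMSO and at 18.6, 42.1, 18.9 and 12.8 CPM in EPZ011989 libraries (log2 fold change -0.17 ± 0.29, edgeR adjusted p = 0.744). In both genes the highest of all 9 libraries was EPZ011989 replicate 2 and the lowest was replicate 4. Without replicate 2, Scn9a was called lower (-0.64, adjusted p = 0.00875), and without replicate 4 its log2 fold change was 0.00 (adjusted p = 0.998).

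Scn1a and Scn3a, pores of brain sodium channels, were minor and were called higher. Scn1a was at 0.108, 0.383, 0.249, 0.338 and 0 CPM in DMSO and at 3.33, 6.23, 4.51 and 3.44 CPM with EPZ011989. The groups were far apart. The means of 0.216 ± 0.160 and 4.38 ± 1.35 CPM differed 20.3-fold (log2 fold change 4.35 ± 0.58, edgeR adjusted p = 0.000313). That ratio rests on 72 counts over the 5 DMSO libraries, whose mean lay near the floor of 0.158 to 0.203 CPM. Scn1a passed the filter only through the EPZ011989 libraries. Its share of the sodium pore level per kb was 0.387% ± 0.315 in DMSO and 7.73% ± 1.22 with EPZ011989. Scn3a was at 0.704, 0.575, 1.09, 0.709 and 0.586 CPM in DMSO and at 2.19, 3.70, 1.74 and 0.968 CPM with EPZ011989 (2.93-fold, log2 fold change 1.55 ± 0.36, edgeR adjusted p = 0.0100). Here the groups overlapped, since EPZ011989 replicate 4 lay below DMSO replicate 3. Scn2a1, the third brain pore, which the rule left out, was at 2.75 ± 0.584 and 3.88 ± 1.04 CPM and was not called (log2 fold change 0.50 ± 0.21, edgeR adjusted p = 0.115).

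These pore genes neighbour each other on chromosome 2 of GRCm38, and called and uncalled genes lie side by side. Scn3a (chr2:65457118-65567627), Scn2a1 (chr2:65620771-65767447), Scn1a (chr2:66270778-66440840), Scn9a (chr2:66480080-66634962) and Scn7a (chr2:66673425-66784914) follow each other with gaps of 53.1, 503.3, 39.2 and 38.5 kb. Scn1a, called higher, and Scn9a, not called, are thus 39.2 kb apart, and the difference between their responses was not tested. Scn7a, a sodium-sensing relative of the voltage-gated pores, had 0 counts in DMSO and 41, 61, 16 and 0 counts with EPZ011989. It did not pass the filter, was at least 2.29-fold higher in mean CPM than the DMSO floor, and was called when all genes with a count were tested (edgeR adjusted p = 0.0195). Scn10a and Scn11a, pores of pain-sensing neurons that lie 34.4 kb apart on chromosome 9, held 0 counts each in DMSO and 24 and 20 with EPZ011989. Scn4a, the pore of skeletal muscle, held 4 and 11 counts.

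Sodium channel β subunits are single-pass membrane proteins that tune the pore and act in cell adhesion. Scn2b had no count in DMSO and stood at 0.742, 0.338, 0.422 and 0.547 CPM with EPZ011989 (56, 24, 32 and 39 counts). All 4 treated libraries lay above the floor, and its mean of 0.512 ± 0.176 CPM was at least 2.91-fold higher than that floor (edgeR adjusted p = 0.000752).

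Scn3b and Scn4b were below the filter. Scn4b, 8.3 kb from Scn2b on chromosome 9, had 0 counts in DMSO and 5, 36, 6 and 0 with EPZ011989. Scn3b had 0, 5, 0, 4 and 4 counts in DMSO and 31, 43, 19 and 7 with EPZ011989, and DESeq2 called it higher (adjusted p = 0.00783) while edgeR without a filter did not (adjusted p = 0.0638).

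Counting the 20 rows below the filter together, 4 were at 0 in all libraries (Cacna1b, Cacng1, Cacng6 and the second Cacng8 row), 9 had counts in EPZ011989 libraries only and 7 in both groups. The 9 were Cacna1s, Cacna2d3, Cacng2, Cacng3, Cacng5, Scn7a, Scn10a, Scn11a and Scn4b. None had counts in DMSO only, the highest single count was 61, and 15 of the 16 rows with counts had a higher mean with EPZ011989. Of all 6296 rows below the filter with a count, 35.4% had counts in EPZ011989 libraries only, 13.1% in DMSO libraries only, and 67.0% had a higher mean with EPZ011989. By groups that do not overlap, 8 tested members were higher with EPZ011989 and 0 lower, beside 16.1% and 8.77% of all tested genes. Among the 8 are Cacna1e, Cacna1g, Scn1a and Scn2b, which passed the filter only through the EPZ011989 libraries. Passing in that way favours such a gap, so nothing is read from that share.

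The spread among treated libraries moved with transcript length. Of the 10 tested members with a longest transcript over 8 kb, 9 were highest among the EPZ011989 libraries in replicate 2 and 6 were lowest in replicate 4. Over 698 genes longer than 8 kb, the median log2 deviation from the group mean was 0.44 in EPZ011989 replicate 2 and -0.32 in replicate 4, and over 2473 genes under 2 kb it was -0.26 and 0.24. Scn9a deviated by 1.01 and -0.71, Cacna1c by 0.52 and -0.41, and the short Cacnb3 by -0.32 and 0.23. When this trend with length was removed from all libraries, Cacna1c (log2 fold change -0.42, edgeR adjusted p = 4.17e-05), Cacna2d1 (-0.35, 0.00248) and Cacnb2 (-0.43, 0.0330) were called lower and Cacng7 higher (0.19, 0.00922). These 3 of 20 members called lower stand beside 1860 of 14754 genes called lower in the same setting. The 9 members called higher all kept their calls, and Scn9a was not called (-0.26, adjusted p = 0.228). What set the trend was not tested.

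**Figure D5:**
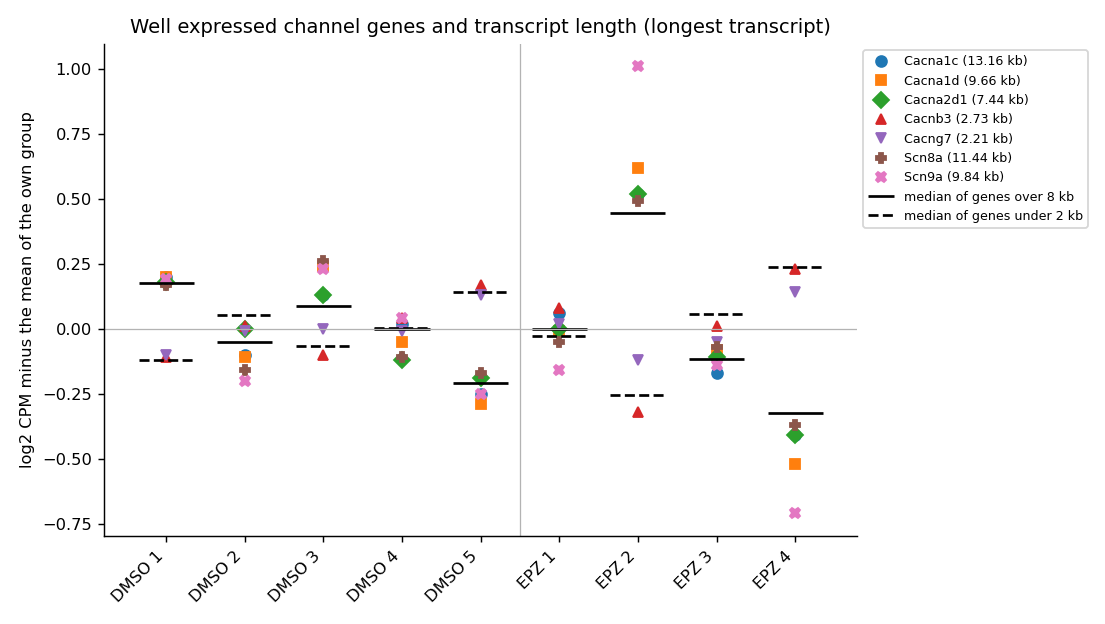
Log2 CPM of 7 abundant channel genes minus the mean of their own group (y axis) in each library (x axis), with the median over genes longer than 8 kb (solid bars) and shorter than 2 kb (dashed bars); lengths in the key are of the longest transcript. In EPZ011989 replicate 2 the long genes Scn9a (1.01) and Cacna1c (0.52) lie above 0 and Cacnb3 (-0.32) below, and in replicate 4 the signs are the opposite.

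Markers of cell types that carry these channels moved in part as well. Markers of the labelled cell type, the alpha cell, were abundant in both groups, with 11 of 12 tested (Dpp4 was at 0), a summed level of 23800 to 26100 CPM in DMSO and 20000 to 26800 CPM with EPZ011989, and Gcg, which encodes glucagon, at 19300 ± 804 and 18600 ± 2340 CPM. Of 12 neuronal markers, all tested, 4 were called higher (Rbfox3, Syt1, Stmn2 and Gap43) and 2 lower (Nefm and Dcx), beside 16.2% and 7.96% of all genes. Rbfox3 and Stmn2 passed the filter only through the EPZ011989 libraries, and the sum of the markers went from 2570 to 2760 CPM down to 2200 to 2390 CPM. Of that sum, Nefm alone made up 1490 ± 71.1 CPM in DMSO and 1220 ± 164 CPM with EPZ011989 on average. Muscle markers summed to 0.777 to 1.33 CPM in DMSO and 3.65 to 5.15 CPM with EPZ011989, with Myh4 and Myog at 0. Of 9 muscle markers 4 were tested, and 3 were called higher (Myh6, Myh7 and Tnnt2) and 0 lower. Myh6 and Tnnt2 passed the filter only through the EPZ011989 libraries. Fibroblast markers summed to 7.31 to 10 and 30.6 to 41.8 CPM, of which Pdgfra made up 7.29 ± 0.964 and 27.6 ± 5.88 CPM on average, while Col3a1, Dcn, Lum and Acta2 had means of 0 in DMSO and at most 0.162 CPM with EPZ011989. Of 9 fibroblast markers 5 were tested, and 4 were called higher (Col1a1, Pdgfra, Pdgfrb and Thy1) and 0 lower. Among these, Col1a1, Pdgfrb and Thy1 (0 CPM in DMSO, 3.28 ± 0.741 with EPZ011989) passed the filter only through the EPZ011989 libraries. Endothelial markers summed to 0.118 to 0.311 and 0.702 to 1.47, glial markers to 20.1 to 23.8 and 28.5 to 31.5, and leukocyte markers to 0.914 to 1.39 and 1.03 to 1.29. The part of such cells in the channel differences was not tested.

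Partners of the channels were taken from 3 lists. Of 20 tested regulators and binding partners of calcium or sodium channels (27 rows), 4 were called higher and 0 lower, with a median log2 fold change of 0.17. Camk2b, a subunit of a calcium-dependent kinase, went from 6.46 ± 0.416 to 9.89 ± 0.681 CPM (edgeR adjusted p = 0.000833), and Cabp1, which binds L- and P/Q-type pores, from 10.3 ± 0.933 to 17.6 ± 3.74 CPM (adjusted p = 0.00215). Camk2a (5.99-fold, adjusted p = 0.0227) and Rims1, an active zone scaffold at 0 in DMSO (at least 1.19-fold, adjusted p = 0.00352), were the other 2, both under 1 CPM and both past the filter only through the EPZ011989 libraries. The Camk2a call was lost without EPZ011989 replicate 1 (adjusted p = 0.0636) or replicate 3 (0.0637). Against the 16.2% of all genes called higher, 4 of 20 is close to the background.

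Of 30 tested genes for calcium stores, pumps and exchangers (35 rows), 14 were called higher and 2 lower, beside 16.2% and 7.96% of all tested genes, with a median log2 fold change of 0.30. Ryr1, Ryr3 and Atp2b3 passed the filter only through the EPZ011989 libraries, and of the other 27 genes 11 were called higher and 2 lower. Atp2b4, a plasma membrane calcium pump, averaged 2.02 ± 0.564 CPM after DMSO and 14.7 ± 2.87 CPM after EPZ011989 (7.26-fold, edgeR adjusted p = 6.19e-06). The store release channels Itpr2 (9.13-fold, adjusted p = 9.57e-06) and Itpr3 (3.39-fold, adjusted p = 4.48e-05) and the exchanger Slc8a2 (3.23-fold, adjusted p = 3.18e-05) were also called higher. The 2 lower genes were Orai2, a store-operated channel, at 35.2 ± 1.32 and 23.6 ± 2.06 CPM (adjusted p = 0.000295), and Atp2a2, the pump that fills the endoplasmic reticulum, at 599 ± 43.4 and 445 ± 36.2 CPM (adjusted p = 0.00258). In each of these 6 genes the groups did not overlap.

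Of 10 tested related cation channels (15 rows), 2 were called higher and 0 lower, with a median of 0.12, a share close to the 16.2% over all tested genes. These were Tpcn2, an endolysosomal channel, at 7.67 ± 0.743 and 12.8 ± 1.22 CPM (edgeR adjusted p = 0.00051), and the proton channel Hvcn1, at 3.39 ± 0.289 and 4.57 ± 0.257 CPM (adjusted p = 0.0216). The Hvcn1 call was lost when any 1 of 6 libraries was left out, DMSO replicates 2, 3 and 5 and EPZ011989 replicates 1, 3 and 4 (adjusted p = 0.0535 to 0.0661). Nalcn, the sodium leak channel, was at 0 in all 9 libraries.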

How the data were processed

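Poly-A RNA-seq libraries of αTC1 cells were grouped by the labelled treatment (5 DMSO, 4 EPZ011989). The authors deposited whole-number gene counts (33212 rows), used here, and a normalized signal table (20796 rows) whose values are the deposited count divided by 1 factor per library, used only as an alternative. HISAT2, StringTie, DESeq2 and mm10 are named per the submitters' processing notes, without roles or versions. Depth was 60274140 to 74651782 deposited counts per library. Small counts did not fall off evenly: a value of 1 occurred 3970 times, 2 and 3 occurred 2108 and 2160 times, and 4 and 5 occurred 3046 and 2732 times. Some fragments may thus weigh about 4 counts and some 1, and as the more cautious choice the floor for a gene at 0 was set at 12 counts per library (3 fragments of 4). Floors cover counting error only.

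Genes passing filterByExpr (a level worth 10 counts in a library of median depth, in at least 4 libraries) were TMM-scaled and fitted in edgeR 4.0.16 under R 4.3.3 with treatment as the only term (robust quasi-likelihood, two-sided, Benjamini-Hochberg over 14754 genes). On data simulated for this comparison (14754 genes, changed ones at 1 CPM or more), 86 of every 100 2-fold changes and 99 of every 100 4-fold changes were called, with 15 false calls. Lengths, positions and exon overlaps come from GENCODE M21 (GRCm38, the assembly of mm10), promoter windows from RefSeq (GRCm38.p6). Replicate numbers are shared by both groups, but same-numbered libraries did not deviate together (correlations 0.015, -0.099, -0.044 and 0.03), so they were not used as pairs.

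Counts cover every member, but some members are not reported here by name. Those passing the filter have tested values, and of the partner lists up to 4 called genes by smallest p in each direction were named. Members and lists were chosen with earlier results of these data known. Alternatives were upper-quartile or RLE factors, unscaled library sizes, 2 other filters, DESeq2 1.42.0, limma-voom and limma 3.58.1 on log2(value + 1) and log2(value + 10), the replicate block, counts divided by 4, omission of libraries and, chosen after seeing the data, removal of the length trend by a loess of each library's deviations on transcript length.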

Additional observations from a re-analysis of the deposited data

Results flagged for a closer look

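One library stood apart from the rest of its group. Scn3a was at 1.09 CPM in DMSO replicate 3, whereas the other 4 DMSO libraries lay between 0.575 and 0.709 CPM, so its gap to the nearest value was 0.741 of the group's range. It was the only distant library found in 40 groups of 4 or 5 libraries checked, and chance gives about 1 in 20.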

How the results depend on the processing

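The 9 members called higher stayed 9 with RLE factors and became 10 with upper-quartile factors, library size alone, limma-voom and both removals of the length trend. Over all 14754 genes, 2294 to 2808 were called higher in these settings. More rows entered without a filter (11 of 36 members called) and with DESeq2 (13 of 40 rows). All genes called higher there were 11.2% of 21050 and 2892 of 33212 rows. The DESeq2 totals of 40 and 33212 count every row, not only tested ones. They include rows at 0 in all libraries and rows given no adjusted p, and only 36 and 21050 rows hold a count. The members gained were Cacna1s and Scn7a in both settings, and Scn3b and Scn4b with DESeq2, all below the filter of the main test. A filter of 1 CPM in 4 libraries left 12 members tested and 5 called higher, since Cacna1a, Cacna1e, Cacna1g and Scn2b were no longer tested. With that filter, 1932 of 12197 genes were called higher. The deposited normalized table gave 14 of 36 members with either pseudocount, beside 2736 (pseudocount 1) and 2718 (pseudocount 10) of 20796 genes. With counts divided by 4, 7 of 16 members were called higher, beside 2099 of 12901 genes, and Cacna1e and Scn2b were not tested. Leaving out 1 library at a time gave 8 to 12 members higher and 0 to 4 lower, with 4 lower (Cacna1c, Cacna2d1, Cacnb2 and Scn9a) without EPZ011989 replicate 2. Over all genes these fits called 1861 to 2939 higher and 781 to 2377 lower. Without EPZ011989 replicates 2 and 4 the count was 12 higher and 3 lower, and with the length trend removed 3 were lower in either way. The cause was not tested.

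Over all genes, the 1174 called lower became 776 with upper-quartile factors, 781 to 2377 when 1 library was left out (781 without EPZ011989 replicate 3, 2377 without replicate 2), and 1860 or 1801 with the length trend removed from all libraries or within groups. The share of calls that were higher was 67.0%, and 77.9% with upper-quartile factors, 76.7% with the replicate block and 55.3% without EPZ011989 replicate 2. The median of all genes moved by at most 0.05 under any scaling.

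Using the replicate number as a block, which the numbers do not justify as a pairing, left 7 members called higher (Cacna1a, adjusted p = 0.0706, and Scn3a, 0.0906, were not called) and 1550 genes higher and 471 lower. It also left 2 channel regulators, 6 store, pump and exchanger genes and 1 related channel called higher.

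Directions that turned were all of members not called: Cacna1d ranged from -0.12 to 0.27 when 1 library was left out (lowest without EPZ011989 replicate 2), Cacng8 from -0.09 (without DMSO replicate 5) to 0.39, and Scn9a from -0.64 to 0.00 (without EPZ011989 replicate 4). Cacng8 was at -0.13 with the replicate block and -0.19 without EPZ011989 replicates 2 and 4. Depth limits the members under about 0.2 CPM, where a library holds few fragments.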
